A study of Mus musculus with 15 samples.

Results

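The 7 libraries of group 2 innate lymphoid cells (ILC2) from mouse small intestine were compared between the dark and the light phase of the day. They are 7 of the 15 libraries of a study of intestinal ILC2 and group 3 innate lymphoid cells (ILC3) at 4 times of day, and were chosen by their labelled cell type and time. The dark phase held 3 libraries, 1 taken at zeitgeber time 16 (ZT16) and 2 at ZT23, and the light phase held 4, 2 each at ZT4 and ZT10. Zeitgeber time is the hour of the animals' own light and dark cycle. The labels give no light schedule, and the times were placed in the phases by the usual convention that ZT0 is lights on.

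ILC2 are tissue lymphocytes without rearranged antigen receptors that release type 2 cytokines, among them interleukin-5 and interleukin-13, in response to alarmins and neuropeptides. The circadian clock is a transcriptional feedback loop: the activators CLOCK and BMAL1 (gene Arntl) bind E-box sequences and switch on the period and cryptochrome genes, whose products block the activators. A second loop runs through the nuclear receptors REV-ERB alpha and beta (genes Nr1d1 and Nr1d2), which repress Arntl, and output factors such as DBP and TEF act through D-box sequences. Mice are active and feed mostly in the dark, so feeding, body temperature and hormones change between the phases along with the clock.

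All libraries were polyA RNA of cells sorted from small intestine of female mice. The labels name no strain, age, genotype or treatment other than the time of day. For each time the cells of 6 mice were pooled before the sort. Whether the 2 libraries of a time came from separate pools is not stated, so the spread between them may be only technical. The p-values here rest on that spread together with the difference between the 2 times of a phase. Every ILC2 library carried the label batch 1 and every ILC3 library batch 2. The 2 times of a phase are themselves 7 h apart in the dark phase and 6 h apart in the light phase, and a gene that peaks within a phase has a large spread there.

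Total counts of the ILC2 libraries ran from 4016298 (ZT10 replicate 1) to 18538315 (ZT10 replicate 2). The ILC2 markers Gata3, Il1rl1, Klrg1, Il5, Il13 and Il17rb had reads in all 7 libraries, from 37.3 CPM (counts per 1000000 counts, after scaling of library sizes) for Il5 to 897 for Il17rb. The libraries also held RNA of other cells. The plasma cell gene Jchain took from 1.85% to 15.7% of the counts, and the summed level of 16 plasma and B cell genes was 35708 to 94840 CPM in the light phase and 94138 at ZT16, 182601 at ZT23 replicate 1 and 18404 at ZT23 replicate 2. Genes of intestinal epithelium summed to 249 CPM at ZT4 replicate 1, to 2451 at ZT4 replicate 2 and to between those values elsewhere. Genes of macrophages, monocytes and dendritic cells summed to 809 to 4364 CPM in the light phase and to 1297 to 1854 in the dark phase. In such sorted bulk samples, fewer cells of a type and less RNA per cell cannot be told apart.

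**Figure D1:**
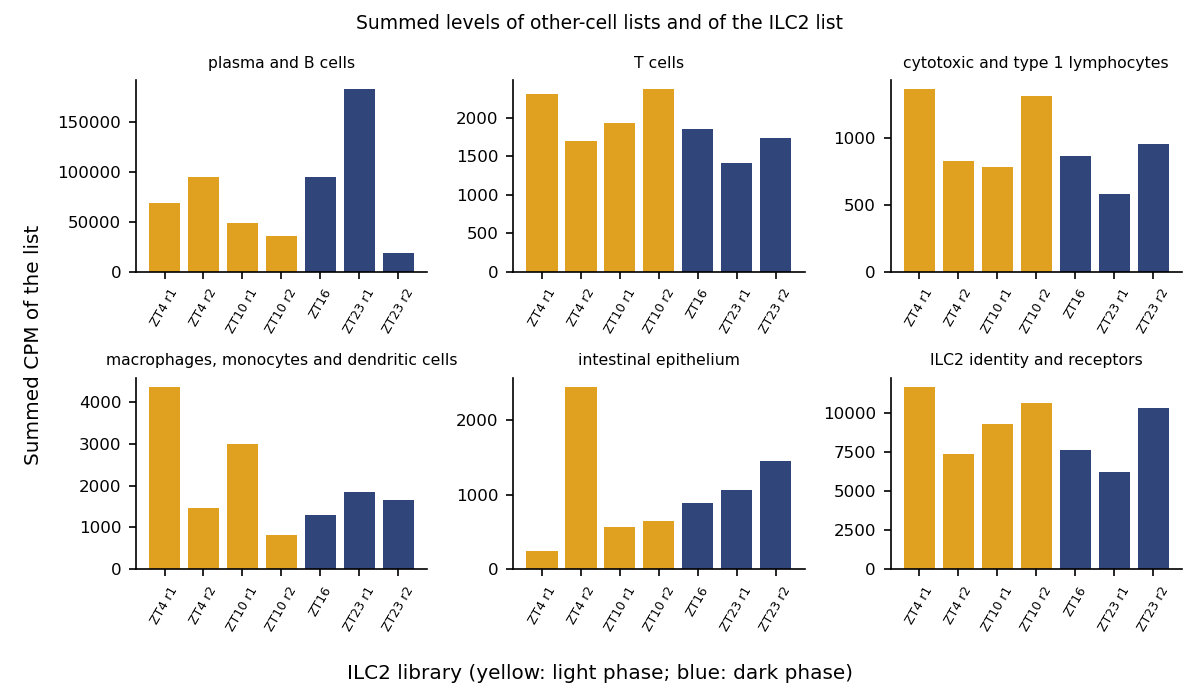
Each bar is the summed CPM of a gene list in 1 ILC2 library, with time and replicate on the x axis, light phase in yellow and dark phase in blue. The plasma and B cell sum runs from 18404 CPM at ZT23 replicate 2 to 182601 at ZT23 replicate 1, so the 2 ends of its range lie in the dark phase, and the ILC2 sum runs from 6239.7 to 11667.

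Across 12591 genes tested, no gene differed between the phases at an adjusted p under 0.05 in edgeR's quasi-likelihood test. The share called was 0% in each direction, and the smallest Benjamini-Hochberg adjusted p was 0.9996, which, to 4 digits, is also the adjusted p of every gene named below that was tested in ILC2. At an unadjusted p under 0.05 there were 122 genes higher in the dark phase (0.969%) and 226 lower (1.79%), together 348 (2.76%), where 5% of the genes would be 629.6. The phases did not overlap, every library of the 1 phase lying above every library of the other, for 280 genes higher in the dark phase (2.22%) and 292 lower (2.32%). On simulated counts with the means and spread of these 7 libraries, the same test called 25% of 2-fold and 81% of 4-fold changes, 100 genes of each size, with 8 false calls. The changed genes were taken without those of low mean count. Each gene was drawn independently, so swings shared by many genes of a library, such as those of plasma cell RNA, were not simulated. The shares called may therefore not hold for the measured counts. DESeq2 called 3 genes on the same counts: Nr1d2 (log2 fold change -1.29, adjusted p = 0.0111) and Dbp (-1.64, adjusted p = 0.0460) as lower and Arrdc3 (1.08, adjusted p = 0.0286) as higher in the dark phase. All values below are therefore measured differences that did not pass edgeR's test over all genes, and "p under 0.05" means edgeR's unadjusted quasi-likelihood p. The log2 fold change of dark minus light, log2FC below, is given ± its standard error. Levels of single libraries follow 1 order, replicates 1 and 2 of ZT4 and of ZT10 for the light phase, then ZT16 and replicates 1 and 2 of ZT23 for the dark phase. List members that overlap between the phases, other than clock genes and the main ILC2 genes, were chosen for mention after their values were seen.

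Of the core clock, 26 genes were looked for and 24 passed the filter on low counts. Rorb and Arntl2 had 0 counts in every ILC2 library. Promoter windows were read for 7 members, the 6 with a p under 0.05 and Cry1, one of the time markers. The windows, from RefSeq (build GRCm38.p6), hold 250 bases before and 50 after an annotated start, and both strands were searched for the E-box CACGTG, found in 7.15% of all 32851 windows, and the D-box TTATGTAA, found in 0.938%. An E-box lay in windows of Per1, Tef and Cry1, and a D-box in that of Per3. The windows of Nr1d1, Nr1d2 and Dbp held neither, which says only that these letters are not in that stretch. The 250 bases before the start are shown for the genes with a match, as examples of the sequences through which clock factors act; capitals mark the E-box in the first 3 and both D-boxes in Per3.
Per1 (chr11:69098699-69098948, plus strand): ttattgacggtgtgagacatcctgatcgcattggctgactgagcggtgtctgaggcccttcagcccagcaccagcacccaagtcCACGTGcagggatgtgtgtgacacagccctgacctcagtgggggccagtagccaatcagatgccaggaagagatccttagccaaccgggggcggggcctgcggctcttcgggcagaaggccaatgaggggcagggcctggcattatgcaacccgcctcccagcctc
Tef (chr15:81802423-81802672, plus strand): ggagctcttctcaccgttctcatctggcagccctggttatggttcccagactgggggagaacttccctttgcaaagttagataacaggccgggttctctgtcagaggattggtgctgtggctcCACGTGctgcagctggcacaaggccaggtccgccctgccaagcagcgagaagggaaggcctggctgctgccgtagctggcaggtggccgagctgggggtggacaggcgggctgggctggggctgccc
Cry1 (chr10:85185055-85185304, minus strand): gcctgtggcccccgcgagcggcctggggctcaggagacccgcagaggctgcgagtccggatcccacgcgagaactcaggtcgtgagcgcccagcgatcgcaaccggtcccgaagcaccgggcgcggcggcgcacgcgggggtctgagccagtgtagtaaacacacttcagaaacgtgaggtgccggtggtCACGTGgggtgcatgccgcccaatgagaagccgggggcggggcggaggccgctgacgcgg
Per3 (chr4:151044666-151044915, minus strand): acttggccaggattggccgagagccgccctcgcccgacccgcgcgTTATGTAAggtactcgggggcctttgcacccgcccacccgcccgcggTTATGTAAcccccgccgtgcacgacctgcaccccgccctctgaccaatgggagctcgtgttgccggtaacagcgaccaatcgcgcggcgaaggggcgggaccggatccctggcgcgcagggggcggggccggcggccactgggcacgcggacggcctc
In the stretches shown, the E-box starts 166 bases before the start site in Per1, 127 in Tef and 60 in Cry1, and the D-boxes of Per3 start 205 and 158 bases before it. Per1 and Tef each have another window at a different start, not shown. That of Tef holds an E-box 138 bases before its start, and that of Per1 holds no match. A match is a description of the sequence and no evidence of binding in these cells.

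Of the 24 clock genes tested, 6 were lower in the dark phase at p under 0.05 (25%, against 1.79% of all genes) and 0 were higher (against 0.969%). They were Nr1d2, Dbp, Per1, Tef, Per3 and Nr1d1. Of these, Nr1d2, Dbp, Per1 and Nr1d1 did not overlap between the phases (4 of 24, 16.7%, against 2.32%). The median log2 fold change of the list was -0.15, beside 0.00 for all genes. Without ZT10 replicate 1 or ZT23 replicate 1 the count of 6 became 3, and without ZT10 replicate 2 it became 2.

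Among the repressors of the second loop, Nr1d2 (REV-ERB beta; Entrez 353187) was measured at 236, 122, 225 and 203 CPM in the light libraries and 86.5, 59.9 and 94.1 in the dark ones. Every dark library was below every light one, and ZT4 replicate 2 was the lowest of the light libraries. The mean was 80.2 ± 18.0 CPM in the dark phase (SD, n = 3) and 197 ± 51.3 in the light phase (n = 4), log2FC -1.29 ± 0.26, edgeR's adjusted p = 0.9996. It stayed between -1.46 and -1.12 when each library was left out in turn.

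Nr1d1 (REV-ERB alpha) was at 27.2, 32.3, 34.96 and 25.7 CPM in the light libraries and 10.5, 21.0 and 25.2 in the dark ones. ZT16 was the lowest library, and the higher ZT23 library lay just under the lowest light one. The difference was log2FC -0.67 ± 0.29, and without the ZT16 library it was -0.36. Its unadjusted p, under 0.05 with all libraries, was above it in 6 of the 7 fits that leave 1 library out. Nr1d1 overlaps Thra, a thyroid hormone receptor gene, in the RefSeq table, and since no strand setting is given its counts are uncertain; Thra itself was at 29.2 ± 8.88 CPM in the dark and 29.4 ± 8.17 in the light phase.

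The output factor Dbp, a PAR domain leucine zipper activator, was at 29.1, 26.5, 52.4 and 48.3 CPM in the light libraries and 19.1, 10.7 and 7.597 in the dark ones. Its 2 ZT10 libraries were highest, those of ZT4 were intermediate and all 3 dark libraries lay below them. The difference was log2FC -1.65 ± 0.37, and it ran from -2.08 to -1.37 as each library was left out. Tef, a factor of the same family, was at 43.0, 43.5, 98.0 and 103 CPM in the light libraries and 58.4, 25.7 and 25.9 in the dark ones. Here the ZT16 library stood above both ZT4 libraries, so the phases overlapped (log2FC -0.97 ± 0.40). The third member of the family, Hlf, overlapped as well (log2FC -0.41 ± 0.26), and the D-box repressor Nfil3 had log2FC -0.15 ± 0.22.

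Per1, a period gene also induced by glucocorticoids, was at 559, 493, 693 and 673 CPM in the light libraries and 439.5, 357 and 458 in the dark ones. The ZT10 libraries were highest and the 3 dark libraries were lowest, without overlap (log2FC -0.53 ± 0.19). Per3 was at 11.1, 10.7, 28.3 and 23.5 CPM in the light libraries and 13.7, 7.24 and 3.43 in the dark ones and Per2 at 9.77, 10.3, 31.7 and 29.2 CPM in the light libraries and 21.6, 7.91 and 3.43 in the dark ones. In both genes ZT10 was highest, ZT16 came next, and ZT4 lay between ZT16 and ZT23. The dark minus light contrast therefore averaged a high and a low time in each phase: log2FC -1.18 ± 0.50 for Per3 and log2FC -0.87 ± 0.62 for Per2.

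Of the cryptochromes, which close the main loop, Cry2 was lower in the dark phase on average (log2FC -0.82 ± 0.42) with ZT10 highest at 26.2 and 23.5 CPM. Cry1, a time marker of this comparison, was at 28.5, 18.6, 40.4 and 32.7 CPM in the light libraries and 39.0, 28.6 and 33.9 in the dark ones. Its lowest library was at ZT4 and its highest at ZT10, with ZT16 close to the latter, so the phases overlapped widely (log2FC 0.18 ± 0.26). The activators did not separate either: Arntl ran from 29.6 to 40.5 CPM over the 7 libraries (log2FC 0.10 ± 0.19), Clock had log2FC -0.11 ± 0.25 and Npas2 had log2FC 0.35 ± 0.48. The signs for Arntl, Clock and Npas2 turned when single libraries were left out.

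The remaining members overlapped between phases. Rora, a nuclear receptor that activates Arntl and that ILC2 need to develop, had log2FC -0.44 ± 0.27. The E-box repressors Bhlhe40 and Bhlhe41 had log2FC -0.07 ± 0.21 and 0.61 ± 0.47. Ciart, Csnk1d, Csnk1e, Fbxl21 and Timeless, which modify or degrade clock proteins or associate with them, had log2FC from -0.15 (Ciart) to 0.17 (Csnk1e).

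**Figure D2:**
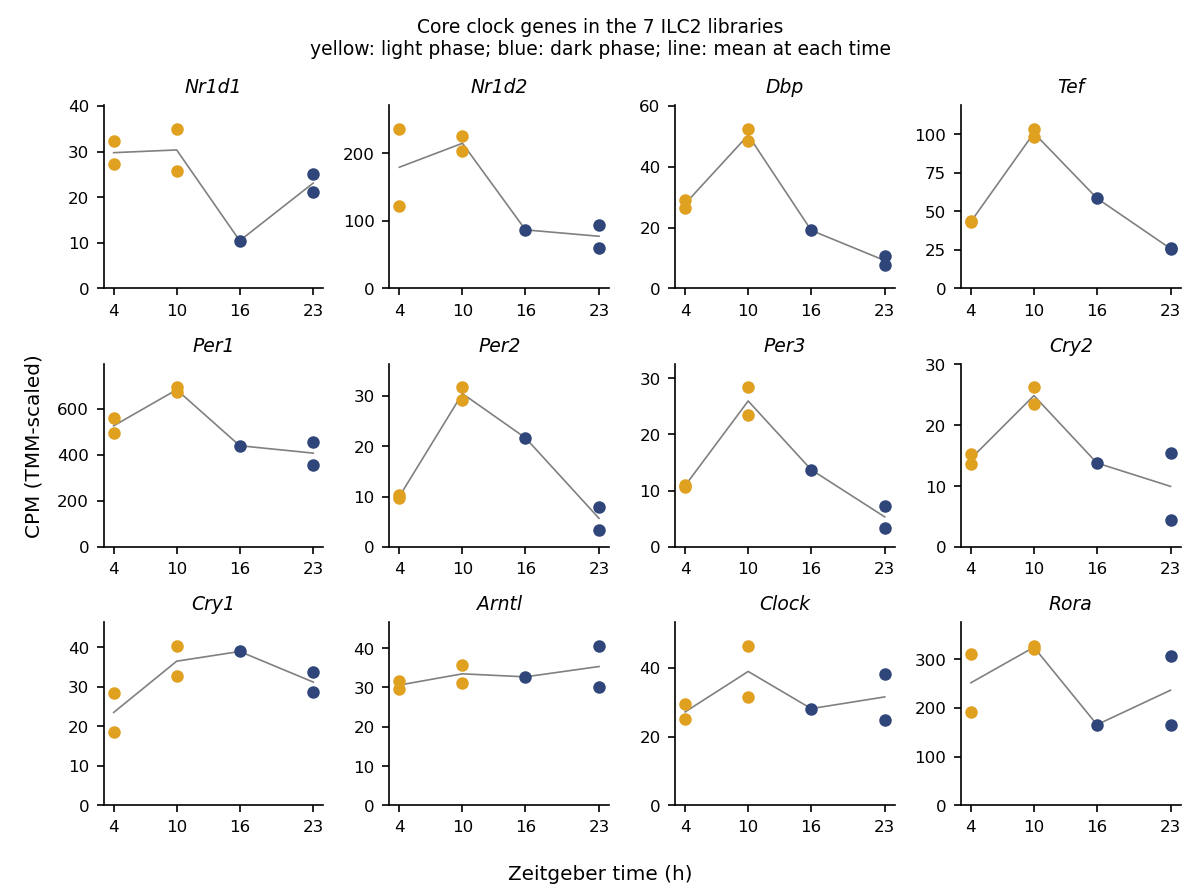
Each point is the TMM-scaled CPM (linear axis from 0) of 1 clock gene in 1 ILC2 library against zeitgeber time in hours, yellow for the light phase and blue for the dark phase, and the grey line joins the mean at each time. Nr1d2 and Dbp have every dark point below every light point, Per2, Per3, Tef and Cry2 are highest at ZT10, and Arntl stays between 29.6 and 40.5 CPM.

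Of a second list of 25 genes known to follow the clock in many tissues, 4 were lower at p under 0.05 (16%, against 1.79% of all genes) and 0 higher, with a median of -0.16. The cold-inducible RNA-binding protein genes Cirbp and Rbm3, which body temperature controls, had log2FC -0.55 ± 0.17 and -0.73 ± 0.24. Cirbp was 118 to 168 CPM in the light phase and 96.2 to 107 in the dark phase, without overlap. Rbm3 was lowest at ZT16 (168 CPM) and ZT23 replicate 1 (179), whereas ZT23 replicate 2 (289) lay within the light range. Coq10b, which acts in coenzyme Q function, did not overlap (log2FC -0.61 ± 0.21), and the tetraspanin gene Tspan4 did (log2FC -0.87 ± 0.39).

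Apart from clock genes, the genes lower in the dark phase with the smallest p, no overlap, a log2 difference of at least 0.58 (1.5-fold) and at least 10 CPM in the higher phase were led by Zswim4, a zinc finger protein gene. It was at 75.5, 72.2, 64.3 and 60.5 CPM in the light libraries and 39.7, 40.8 and 39.0 in the dark ones. The spread within each phase was small beside the distance between them (log2FC -0.77 ± 0.17). Wsb1, which encodes a substrate adaptor of a ubiquitin ligase, was at 70.8, 71.3 and 72.5 CPM in the dark libraries and 106 to 214 in the light ones (log2FC -1.06 ± 0.23). The set also held Mepce, the capping enzyme of 7SK RNA (log2FC -0.90 ± 0.20), the splicing factor gene Cwc25 (log2FC -0.86 ± 0.22), the cyclin gene Ccnl1 (log2FC -0.86 ± 0.23) and Clp1, an RNA kinase (log2FC -1.09 ± 0.29). Sertad1 (log2FC -0.90 ± 0.24), the calcium channel regulator gene Cbarp (log2FC -0.80 ± 0.22), the matrix protease gene Mmp9 (log2FC -1.44 ± 0.34) and the chemokine gene Xcl1 (log2FC -1.39 ± 0.39) completed the 12 with Nr1d2 and Dbp, out of 75 genes that met these criteria.

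In the other direction 35 genes met the criteria, and Arrdc3 had the smallest p. It encodes an arrestin domain protein that sends surface receptors to degradation. Arrdc3 was at 86.6, 95.4, 92.8 and 63.8 CPM in the light libraries and 132, 207 and 197 in the dark ones. The ZT23 libraries were highest, ZT16 was lower, and all 3 were above the 4 light libraries (log2FC 1.08 ± 0.21). Leaving out each library in turn gave 0.96 to 1.27. Next among the 12 with the smallest p came the chaperone genes Hsph1 and Hsp90aa1 and the lipid synthesis genes Scd2, Acaca and Aacs, with Thap2 (log2FC 1.24 ± 0.34), C87436 (log2FC 1.05 ± 0.31), the mitochondrial ribosome gene Mrpl53 (log2FC 1.08 ± 0.35), the membrane skeleton gene Epb41l2 (log2FC 0.60 ± 0.19) and the cochaperone gene Dnajc21 (log2FC 0.67 ± 0.22). Since every gene of these 2 sets was chosen for its lack of overlap, an exact two-sided permutation test gives each the same p of 0.0571, the smallest that 35 divisions of 7 libraries allow, so the permutation test cannot reach 0.05 here. Several of these genes overlap a neighbour in the RefSeq table (Dbp with Sphk2, Acaca with Tada2a, Cbarp with Atp5d and Stk11, Mrpl53 with Ccdc142), and their counts are uncertain where reads could be shared.

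Cholesterol is made from acetyl-CoA through the mevalonate pathway, and fatty acids from the same precursor. All 30 genes of the list of cholesterol and fatty acid synthesis were tested, 11 were higher in the dark phase at p under 0.05 (36.7%, against 0.969% of all genes) and 0 were lower. The median was 0.37, 27 of 30 had a positive log2 fold change, and 6 did not overlap (20%, against 2.22%). Without ZT23 replicate 1 the 11 became 6, and without any other single library they were 8 to 14.

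In fatty acid synthesis, Acaca encodes acetyl-CoA carboxylase, the committed step, and was at 7.81, 9.88, 19.6 and 15.1 CPM in the light libraries and 22.3, 24.0 and 28.8 in the dark ones. All dark libraries were above all light ones, and the ZT4 libraries were lowest (log2FC 0.94 ± 0.31). Fasn, fatty acid synthase, was at 145 to 189.9 CPM in the light and 218 to 251 in the dark phase (log2FC 0.52 ± 0.16). The desaturase genes Scd2 and Scd1, whose products make monounsaturated fatty acids, had log2FC 0.77 ± 0.23 and 1.07 ± 0.41, also without overlap. Aacs, outside the list, activates acetoacetate for lipid synthesis and was at 28.2 to 46.0 CPM in the light and 57.9 to 63.1 in the dark phase (log2FC 0.70 ± 0.20). Acly and Elovl6, which make acetyl-CoA and lengthen fatty acids, had log2FC 0.18 ± 0.17 and 0.37 ± 0.32.

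In the cholesterol branch, the early enzyme genes Hmgcs1 (log2FC 0.60 ± 0.24), Idi1 (log2FC 0.81 ± 0.27) and Fdps (log2FC 0.87 ± 0.32), and the later ones Sqle (log2FC 0.69 ± 0.25) and Dhcr7 (log2FC 0.67 ± 0.23) were higher on average but overlapped. Fdps, for example, was at 51.4, 90.7, 43.7 and 43.4 CPM in the light libraries and 81.7, 158 and 76.4 in the dark ones, with 1 library far above the other 6. Of the regulators, Srebf1 did not overlap (log2FC 0.26 ± 0.16), and Srebf2, Scap and Insig1 had log2FC 0.19 ± 0.19, 0.22 ± 0.20 and 0.32 ± 0.32. RefSeq windows were found for 5 of the 11 members with p under 0.05, and the sterol regulatory element TCACNCCAC, present in 1.24% of all windows, lay in 1 of them, that of Hmgcs1.

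Plasma cell RNA was highest in ZT23 replicate 1 and epithelial RNA in ZT4 replicate 2, and those libraries were the highest of their phase for Sqle, Fdps and Hmgcs1. The epithelial list had 19 of 25 members higher on average in the dark phase (median 0.48, Epcam log2FC 0.76 ± 0.27). The other 6 were lower, among them Lyz1 (log2FC -0.26). The plasma and B cell list had 15 of 16 higher (median 0.55), and none of either list was at 0 in all libraries. Without ZT23 replicate 1 the plasma and B cell median was -0.10, and without ZT23 replicate 2 the epithelial median was -0.085. The plasmacytoid dendritic cell list had 14 of 15 higher on average (median 0.35, and 0.047 without ZT23 replicate 1), and 1 at p under 0.05 (6.67%, against 0.969% of all genes). Its sums were 2349.6 to 4217 CPM in the light and 2543 to 5541 in the dark phase, with ZT23 replicate 1 highest. The part of these cells' RNA in the lipid synthesis differences was not tested.

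The heat shock and cold-inducible list had 6 of 19 members higher at p under 0.05 (31.6%, against 0.969% of all genes), 2 lower (10.5%, against 1.79%) and a median of 0.22. The 2 lower members were Cirbp and Rbm3, which were also counted in the second clock list above. Hsph1, a large chaperone that recharges HSP70, was at 60.7, 86.0, 111 and 103 CPM in the light libraries and 228, 197 and 118 in the dark ones. ZT16 and ZT23 replicate 1 were near each other and far above the rest, and ZT23 replicate 2 stood just above the highest light library (log2FC 1.00 ± 0.26). Hsp90aa1, the inducible HSP90 (log2FC 0.62 ± 0.17), and the mitochondrial chaperonin gene Hspd1 (log2FC 0.49 ± 0.16) did not overlap either.

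The inducible HSP70 genes were more uneven. Hspa1b was at 371, 1893, 1313 and 981 CPM in the light libraries and 5315, 4178 and 1295 in the dark ones. Its near-identical copy Hspa1a was at 128, 494, 372 and 278 CPM in the light libraries and 1467, 1270.4 and 309 in the dark ones, and reads may be shared between the 2 copies. In both, ZT16 and ZT23 replicate 1 were high while ZT23 replicate 2 lay inside the light range (log2FC 1.66 ± 0.52 and log2FC 1.67 ± 0.51). Dnajb1, the HSP40 partner, had the same order (1215, 1049 and 299 CPM in the dark libraries; log2FC 1.31 ± 0.42), and Bag3 had log2FC 0.96 ± 0.44. ZT16 and ZT23 replicate 1 were also the dark libraries with the higher sums of plasma and B cell genes (94138 and 182601 CPM), whose part here was not tested. Without the ZT16 library the count of 6 became 3 and the list's median 0.093. The constitutive Hspa8 and Hsp90ab1 had log2FC 0.23 ± 0.19 and 0.22 ± 0.17, and Hsf1, the regulator, had log2FC 0.05 ± 0.19. Of 10 RefSeq windows for 6 of these 8 genes, 3 held the heat shock element (GAA, 2 bases, TTC, 2 bases, GAA), against 0.603% of all windows. They are 1 window of Hspd1 and 2 of Hsph1, which overlap nearly in full and share 1 element, which lies after the start site.

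**Figure D3:**
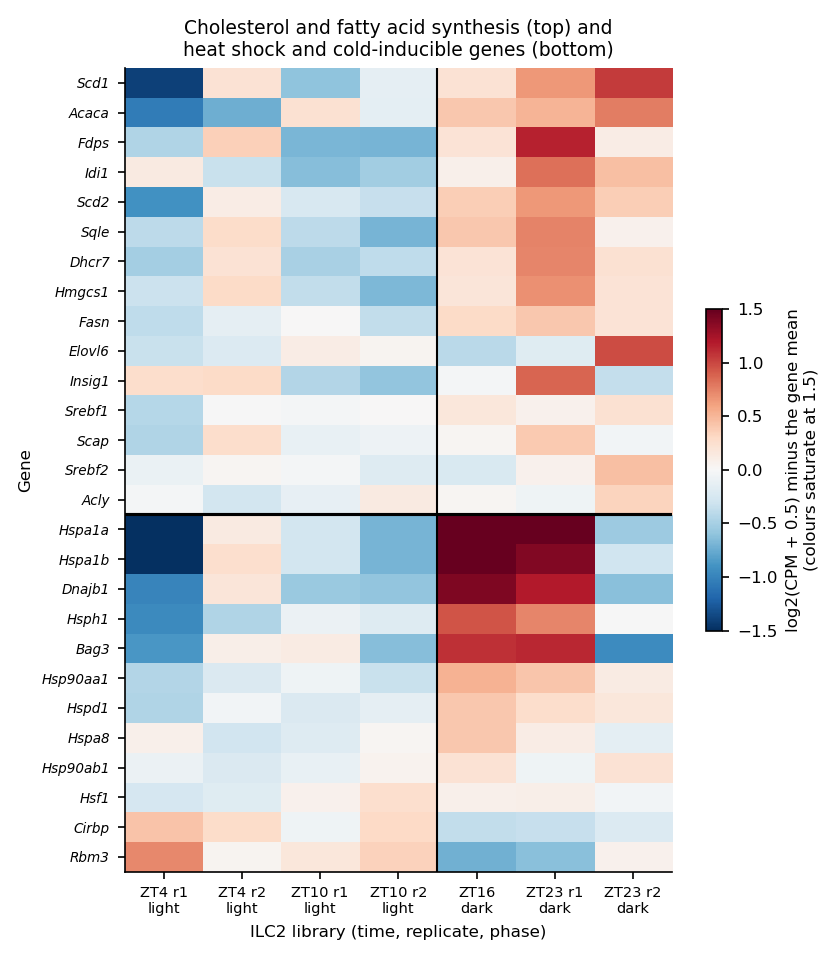
Colours give log2(CPM + 0.5) minus the mean of the gene for each gene named in the text (rows) in each ILC2 library (columns; 4 light left of the line, 3 dark right), with lipid synthesis genes on top and heat shock and cold-inducible genes below. Scd2, Acaca and Fasn are red in all 3 dark libraries, whereas Hspa1a, Hspa1b and Dnajb1 are red at ZT16 and ZT23 replicate 1 and not at ZT23 replicate 2.

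Immediate-early genes, which respond within minutes to stimulation and to cell handling, went both ways. Of 26 tested, 3 were lower at p under 0.05 (11.5%, against 1.79% of all genes) and 1 higher (3.85%, against 0.969%). Egr1 was at 1602, 729, 703 and 917 CPM in the light libraries and 617, 508 and 450.0 in the dark ones. ZT4 replicate 1 stood above the others, and the dark libraries were all below the light ones (log2FC -0.91 ± 0.29). The nuclear receptor genes Nr4a2 (log2FC -1.18 ± 0.34) and Nr4a3 (log2FC -0.65 ± 0.24) were lower with overlap, and Ier2 was lower without it (log2FC -0.51 ± 0.26). Fos was highest at ZT16 (3011 CPM) and ZT23 replicate 1 (3119.6), the libraries that were high for Hspa1a, and within the light range at ZT23 replicate 2 (log2FC 0.69 ± 0.24). Klf6 was higher in the dark phase without overlap (log2FC 0.37 ± 0.18). The list's median was -0.25, and -0.036 without ZT4 replicate 1. Without ZT4 replicate 2 there were 5 lower members.

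Of the 33 tested genes of ILC2 identity and receptors, 0 had a p under 0.05 in either direction and 0 were free of overlap, and the median was -0.24, with 25 of 33 lower on average. Without ZT23 replicate 1, the library richest in plasma cell RNA, the median was -0.052. Gata3, the master regulator, was at 619, 353, 501 and 625 CPM in the light libraries and 411, 283 and 561 in the dark ones. Its dark and light ranges overlapped (log2FC -0.33 ± 0.27). The receptor genes Il1rl1 (IL-33 receptor), Il17rb (IL-25 receptor), Klrg1 and Nmur1 (neuromedin U receptor) had log2FC -0.30 ± 0.21, -0.23 ± 0.26, -0.31 ± 0.24 and 0.18 ± 0.29.

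Of 15 type 2 effector genes, 3 were lower at p under 0.05 (20%, against 1.79% of all genes) and 0 higher, with a median of -0.39. The 3 were Calca, Cd40lg and Tnf, and the type 2 cytokine genes Il4, Il5 and Il13 were not among them. Calca, which encodes calcitonin gene-related peptide, a brake on ILC2, was at 57.1, 40.0, 65.9 and 51.8 CPM in the light libraries and 35.8, 23.9 and 36.4 in the dark ones. The light libraries were all above the dark ones (log2FC -0.74 ± 0.23). Cd40lg, the ligand that T helper cells give to B cells, was lower without overlap (log2FC -1.63 ± 0.51), with its lowest value of 4.07 CPM at ZT23 replicate 1, and Tnf was lower with overlap (log2FC -0.74 ± 0.33). Il5 was at 113, 65.3, 56.2 and 52.5 CPM in the light libraries and 43.2, 37.3 and 72.7 in the dark ones. The ZT23 replicate 2 library stood above 3 of the 4 light libraries (log2FC -0.48 ± 0.31). Il13 (log2FC -0.26 ± 0.32), Il4 (log2FC -0.46 ± 0.36), Csf2 (log2FC -0.39 ± 0.31) and the repair factor gene Areg (log2FC 0.04 ± 0.30, whose sign turned when single libraries were left out) overlapped between the phases. Il9 and Penk did not pass the filter on low counts.

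Of 20 tested genes of cytotoxic and type 1 lymphocytes, 6 were lower in the dark phase at p under 0.05 (30%, against 1.79% of all genes) and 0 higher, with a median of -0.49. On average 15 were lower and 5 higher, up to log2FC 1.61 ± 1.48 for Eomes, which ran from 0 to 5.10 CPM. The 6 were Xcl1, Il12rb2, Ifng, Fasl, Tbx21 and Cd160. Ifng, the type 1 cytokine gene, was at 73.6, 27.6, 26.9 and 46.1 CPM in the light libraries and 25.3, 8.71 and 17.0 in the dark ones. ZT4 replicate 1 was highest and ZT23 replicate 1 lowest, with the ZT16 library just below the lowest light library (log2FC -1.35 ± 0.42). Tbx21, the type 1 master regulator, was at 57.1, 29.0, 40.9 and 74.1 CPM in the light libraries and 31.2, 11.1 and 30.5 in the dark ones, and overlapped (log2FC -1.05 ± 0.39). Nkg7, Gzmb and Ccl5 had log2FC -0.51 ± 0.28, -0.68 ± 0.40 and -0.47 ± 0.41. The count of 6 became 3 without ZT10 replicate 2 or ZT23 replicate 1, and the median was -0.22 without ZT4 replicate 1.

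The summed level of this list was 782 to 1369.9 CPM in the light and 582 to 961 in the dark phase, and Klra4 and Klra8 were at 0 throughout. Of the T cell list, 16 of 19 were lower on average as well (median -0.38, sum 1699.7 to 2371 CPM in the light and 1414 to 1846 in the dark phase). At p under 0.05, 1 was lower (5.26%, against 1.79% of all genes), Cd6 (log2FC -0.71 ± 0.26). None of the T cell list was at 0 in all libraries, and Trac, the T cell receptor alpha constant gene, ran from 15.8 to 119.8 CPM. The part of T cells or other lymphocytes in the lower Ifng, Tbx21 and Cd40lg was not tested.

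Other lists are described together here. None of the genes of oxidative phosphorylation (43 tested), glycolysis (22), proliferation (32), NF-kB signalling (24), lipid uptake and storage (26), homing and adhesion (25) or receptors for neural, hormonal and metabolite signals (26) had a p under 0.05. The medians of these lists lay between -0.20 and 0.11. In homing, 3 of 25 genes were higher without overlap (12%, against 2.22% of all genes), Cxcr4 (log2FC 0.34 ± 0.15), Itgal (log2FC 0.22 ± 0.16) and Ccr6 (log2FC 1.12 ± 0.65). S1pr4 was lower without overlap (log2FC -0.16 ± 0.16), 1 of 25 (4%, against 2.32%). Ccr6, also a member of the ILC3 list, was at only 0.488 to 3.70 CPM in the ILC2 libraries, beside 57.4 to 130 in the ILC3 libraries. Ribosomal protein genes were lower on average in 49 of 50 cases with a median of -0.33, and 3 had a p under 0.05 (6%, against 1.79%): Rpl12 (log2FC -0.61 ± 0.25), Rpl3 (log2FC -0.49 ± 0.20) and Rps16 (log2FC -0.49 ± 0.22). Their sum was 19162 to 33448 CPM in the light and 19501 to 22315 in the dark phase, with ZT4 replicate 1 highest. Of 17 glucocorticoid response genes, 2 were lower at p under 0.05 (11.8%, against 1.79% of all genes), Per1 and Errfi1 (log2FC -0.49 ± 0.20). Of 30 interferon response genes, 1 was higher at that p (3.33%, against 0.969%), Oasl1 (log2FC 0.87 ± 0.30). Of 27 genes of endoplasmic reticulum folding, 1 was higher (3.7%, against 0.969%), Ddit3 (log2FC 0.58 ± 0.25), with a list median of 0.30. That median was 0.050 without ZT23 replicate 1 and 0.57 without ZT23 replicate 2. The summed level was 22059 CPM at ZT23 replicate 1 and 10553 at ZT23 replicate 2, beside 10795 to 15862 in the light phase. Among markers of other cells, 11 genes of mast cells, basophils and eosinophils were tested, 7 higher and 4 lower on average. At p under 0.05, 3 were higher (27.3%, against 0.969% of all genes), the mast cell protease genes Mcpt1, Mcpt2 and Cpa3. They were highest at ZT16 and overlapped (log2FC 2.15 ± 0.91, log2FC 2.24 ± 0.99 and log2FC 1.58 ± 0.69). The list's median of 0.44 became 0.0066 without the ZT16 library and 0.011 without ZT10 replicate 2.

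**Figure D4:**
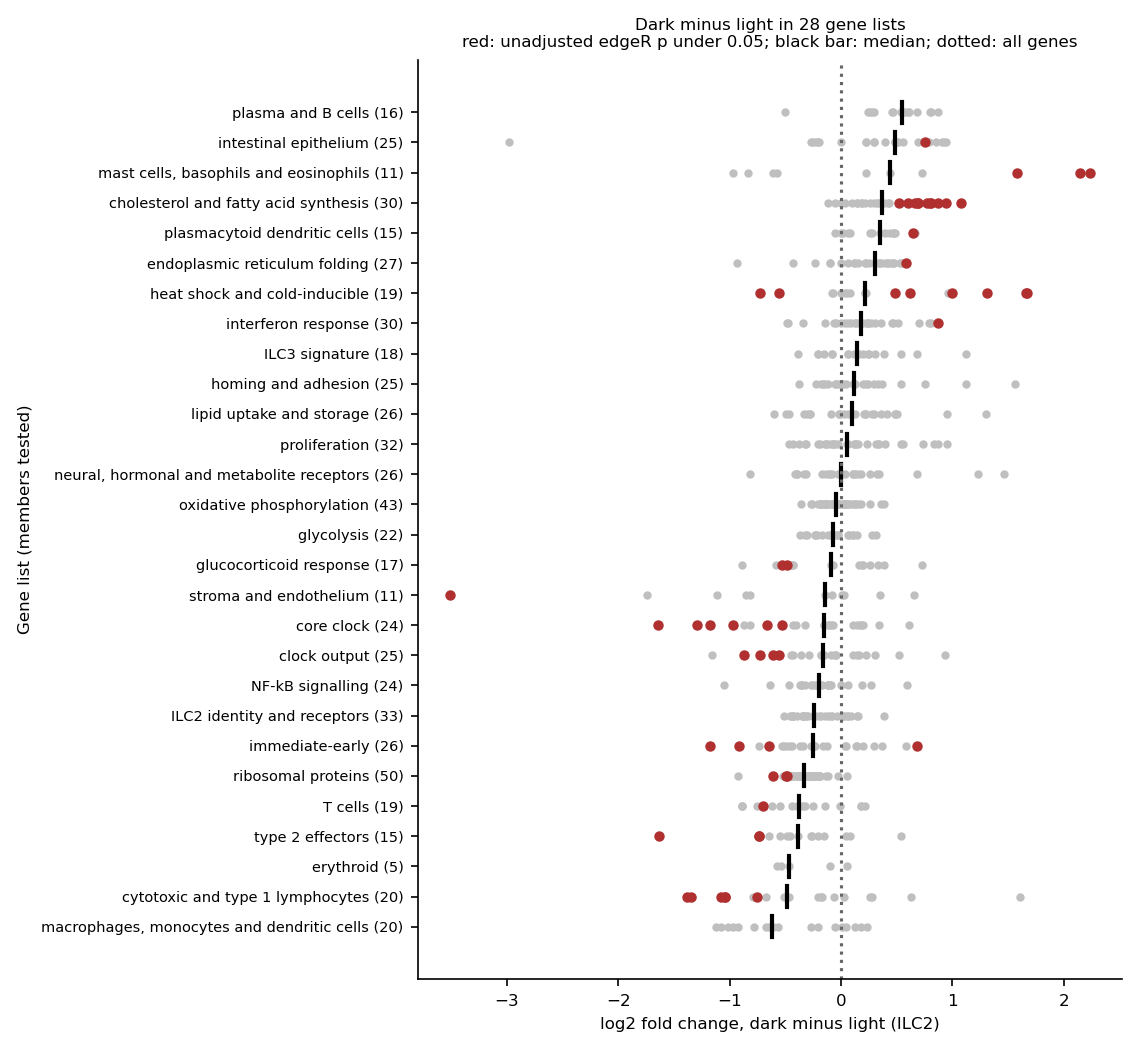
Each point is the log2 fold change (dark minus light, ILC2) of a tested member of 1 of 28 gene lists, red where edgeR's unadjusted p is under 0.05, with a black bar at the list's median and a dotted line at the median of all genes (0.00). Lipid synthesis has 11 red points, all right of 0, the core clock 6, all left of 0, and cytotoxic and type 1 lymphocytes 6, all left of 0.

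The same contrast was read in the 8 ILC3 libraries, 4 per phase, which share no library with ILC2. Whether both cell types were sorted from the same pooled mice is not stated. The values come from 1 edgeR fit of all 15 libraries, in which 14221 genes were tested. In ILC3, 4.15% of genes were lower and 1.68% higher in the dark phase at p under 0.05, and 0% passed the adjusted test. Of the 12 genes named as lower in ILC2, 11 had the same sign in ILC3 and 10 (83.3%) had a p under 0.05 there, against 6.91% of the 6278 genes that were lower in ILC2 and tested in both fits. Of the 12 named as higher, 10 had the same sign and 2 (16.7%) had a p under 0.05, against 2.22% of 6313 genes.

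The shared lower genes included Zswim4 (ILC3 log2FC -1.14 ± 0.19), Wsb1 (-1.004 ± 0.21), Mepce (-0.79 ± 0.17), Cwc25 (-1.15 ± 0.28), Nr1d2 (-1.04 ± 0.25) and Dbp (-1.25 ± 0.49). Nr1d1 had an ILC3 log2FC of -1.23 ± 0.25, and its ILC2 minus ILC3 difference of 0.58 ± 0.37 had a p above 0.05 in edgeR's interaction test. Per1 had -0.60 ± 0.23 and Cry1 0.28 ± 0.23 on the same scale. The shared higher genes with a p under 0.05 in ILC3 were Arrdc3 (ILC3 log2FC 0.78 ± 0.30) and Hsph1 (0.70 ± 0.26). All 226 genes lower in ILC2 at p under 0.05 were also read in ILC3: 73% had the same sign, against 56.4% of all genes lower in ILC2, and 74 (32.7%) had the same sign and a p under 0.05, against 6.91%. Of the 122 higher genes 72.1% had the same sign, against 57.6% of all genes higher in ILC2, and 4 (3.28%) also had such a p, near the 2.22% of all genes.

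**Figure D5:**
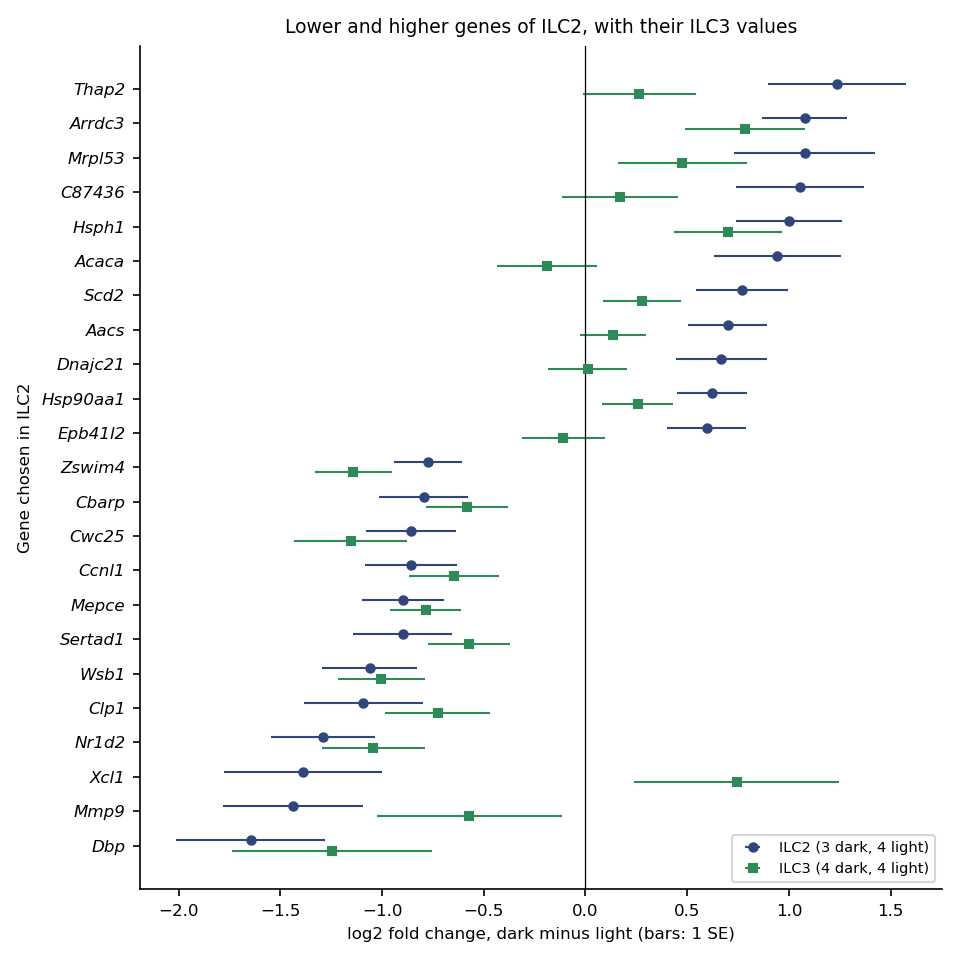
Points give the log2 fold change of dark minus light with 1 standard error for 11 of the 12 higher genes and the 12 lower genes chosen in ILC2 (blue circles, 3 dark and 4 light libraries), beside the same genes in ILC3 (green squares, 4 and 4). Of the lower genes all but Xcl1 lie left of 0 in ILC3, and of the higher genes Acaca and Epb41l2 lie left of 0.

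The test of a difference between the cell types, edgeR's interaction of cell type and phase, called 0% of the 14221 genes, and 463 (3.26%) had a p under 0.05. Of the lipid synthesis genes, 21 of 30 had the same sign in ILC3 as in ILC2 (70%) and 1 of 30 also a p under 0.05 there (3.33%, near the 2.22% of all genes higher in ILC2), and the list's ILC3 median was 0.082. Acaca had an ILC3 log2FC of -0.19 ± 0.25, an ILC2 minus ILC3 difference of 1.14 ± 0.36 with p under 0.05. The differences of Fasn (0.50 ± 0.23), Aacs (0.57 ± 0.24) and Dnajc21 (0.67 ± 0.29) also had p under 0.05, and that of Scd2 (0.51 ± 0.28) did not. In the other direction the log2FC of ILC2 minus that of ILC3 was -1.26 ± 0.49 for Egr1 and -2.12 ± 0.79 for Xcl1, both with p under 0.05. None of these passed adjustment over all genes.

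The genes with the smallest interaction p and at least 10 CPM in 1 phase of 1 cell type were, for a positive difference, higher on average in the dark phase of ILC2 and lower in that of ILC3. Mbnl2, a splicing regulator, was at 37.8 CPM in the light and 53.7 in the dark phase of ILC2 and had a log2FC of -0.60 ± 0.20 in ILC3, a difference of 1.12 ± 0.29. The log2FC of Lipe, hormone-sensitive lipase, differed by 1.01 ± 0.27, the lipoprotein receptor gene Scarb1 by 1.32 ± 0.37, the disulfide isomerase gene Pdia5 by 1.496 ± 0.42 and Arhgef28 by 2.92 ± 0.84, the last at no more than 2.13 CPM in the ILC2 libraries. In the other direction were Fermt2, Adamts15 and St6galnac5, low in 1 of the cell types, and the pancreatic enzyme genes Amy2a4 and Cela2a, whose level in ILC3 rested on 1 ZT16 library (46.0 and 35.3 CPM).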

How the data were processed

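RNA-seq libraries were made from 100 ng of total RNA of sorted cells. The authors deposited raw counts per gene (Entrez identifiers), made with featureCounts on mm10 per the submitters' processing notes. The aligner, strand setting and treatment of multi-mapping reads are not given in the sources used here, so counts of overlapping genes and near-identical copies are uncertain. Names were matched to RefSeq GRCm38.p6 for 22718 of 22797 genes. The depth of the ILC2 libraries was 4016298 to 18538315 counts and that of the ILC3 libraries 5903163 to 24794403.

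The 7 ILC2 libraries were fitted with edgeR 4.0.16 in R 4.3.3 (filterByExpr with a minimum count of 10, TMM scaling, quasi-likelihood test of dark minus light, Benjamini-Hochberg adjustment, threshold 0.05). The biological coefficient of variation was 0.359 on 5 residual degrees of freedom. CPM are TMM-scaled. The interaction was fitted on all 15 libraries. Alternatives were DESeq2 1.42.0, limma voom 3.58.1, other scalings and filters, time-of-day means, a replicate block and leaving out each library. The test was checked on simulated data.

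Named genes were all tested clock genes, the 12 genes with the smallest p in each direction that did not overlap between phases and passed the size limits, up to 4 members without overlap of each list, 8 main ILC2 genes, 5 interaction genes in each direction and the most abundant marker of each other cell type. Lists were described by counts and medians, without set tests. A few members counted in the lists are not reported here by name. The members and the 28 lists were chosen with earlier results of these data known. Replicate libraries differed by far more than counting noise (chi-square per degree of freedom 22.0 to 229), which does not show that they came from separate pools of mice.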

Additional observations from a re-analysis of the deposited data

Results flagged for a closer look

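The gap of 1 library from the others of the light phase (4 libraries) was tested with Dixon's criterion at its 95% level for 118 values, and 9 passed it, where chance alone passes about 1 in 20. The dark phase, with 3 libraries, was not tested. ZT4 replicate 1 stood above the other light libraries for Clp1 (102 CPM against 48.6 to 56.0), Ier2 (821 against 409.5 to 429) and Sertad1 (92.0 against 53.9 to 60.2). ZT4 replicate 2 stood above them for the Paneth cell gene Lyz1 (718 against 101 to 168) and for Pdia5 (5.86 against 2.93 to 3.25). It stood below them for Mepce (71.9 against 106 to 109), Rora (192 against 311 to 327) and the summed core clock list (2592 against 3483 to 3617). ZT10 replicate 2 stood below the others for the haemoglobin gene Hba-a2 (37.5 against 47.4 to 48.2). ZT4 replicate 2 was also the library with the highest sum of epithelial genes (2451 CPM), and ZT4 replicate 1 that with the lowest (249 CPM). The part of these in the gaps was not tested.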

How the results depend on the processing

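No alternative brought more than 3 genes past the adjusted threshold. DESeq2 called 1 higher (Arrdc3, 1.08) and 2 lower (Nr1d2, -1.29; Dbp, -1.64), and leaving out each library gave 0 to 2 higher calls in edgeR, the 2 being Defa21 and Defa22 without ZT4 replicate 2 (adjusted p = 0.0216). Limma voom called 0. The interaction had 0 calls in every alternative.

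The number of genes higher at p under 0.05 (122) was 198 with all genes of at least 1 count, 292 in the 15-library fit, and 71 to 429 with each library left out. The number lower (226) was 144 to 377 with each library left out. Genes without overlap were 404 to 1154 higher and 409 to 942 lower with 1 library fewer. Smaller groups separate more easily, but the counts also differed at equal group sizes. Both upper ends came without ZT23 replicate 2, whereas without ZT16 or ZT23 replicate 1 the higher genes were 566 and 664. The members at p under 0.05 ranged over the same fits from 2 to 6 (core clock, lower), 6 to 14 (lipid synthesis, higher), 3 to 8 (heat shock, higher), 3 to 7 (cytotoxic, lower) and 2 to 5 (immediate-early, lower). List medians ranged from -0.045 to 0.17 (homing), -0.32 to -0.036 (immediate-early), -0.28 to 0.023 (glucocorticoid), -0.024 to 0.24 (interferon), -0.055 to 0.16 (lipid uptake) and -0.65 to -0.021 (stroma, which was -0.83 with all genes of at least 1 count).

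Same-numbered libraries of ZT4, ZT10 and ZT23 had deviations correlated at 0.01 to 0.11, so the numbers were not taken to pair them. With a replicate block 0 genes were called, and 70 higher and 126 lower had p under 0.05, against 71 and 150 without the block on the same libraries.

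Of 1882 values of 118 single genes under the alternatives, 1835 kept direction and side of the threshold, 3 moved past it and 44 turned in sign. Leaving out libraries turned the sign of Areg (-0.29 to 0.29), Arntl (-0.019 to 0.19), Bhlhe40 (-0.27 to 0.070), Cd28 (-0.31 to 0.25), Ciart (-0.66 to 0.44), Clock (-0.30 to 0.10), Csnk1d (-0.18 to 0.018), Fbxl21 (-0.45 to 0.083), Jchain (-0.14 to 1.19), Ly6c2 (-0.029 to 1.11), Lyz1 (-0.53 to 0.77), Nfil3 (-0.27 to 0.052), Nmur1 (-0.18 to 0.47), Npas2 (-0.019 to 0.60), Prg2 (-0.24 to 1.27), St6galnac5 (-0.21 to 0.22), Thy1 (-0.27 to 0.024), Timeless (-0.15 to 0.46) and Tmem176b (-0.30 to 0.45). Other settings turned Cd28 (0.0039 scaled without immunoglobulin genes, 0.0061 with all genes of at least 1 count, 0.0030 in the 15-library fit, 0.011 without the block), Ciart (0.055 with 4 time means, 0.062 in the 15-library fit), Clock (0.0018 in voom), Lyz1 (0.14 in voom, 0.12 with the block) and St6galnac5 (-0.074 in voom, -0.15 with and -0.21 without the block). The cause was not tested. Depth limits genes of a few CPM, such as Ciart (0.104 to 4.32 CPM).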

Other observations

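Of the genes lower in the dark phase at an unadjusted edgeR p under 0.05 in ILC2, 74 also had the same sign and such a p in ILC3, and some of them, named here after their values were seen, fall outside the lists described above. Hexim1, whose product holds the elongation kinase P-TEFb inactive together with 7SK RNA, had log2 fold changes of -0.56 in ILC2 and -0.90 in ILC3, beside Mepce, which caps that RNA (-0.90 in ILC2 and -0.79 in ILC3). The histone modifier genes Dot1l, a H3K79 methyltransferase, and Kdm6b, a H3K27 demethylase, had -0.68 in ILC2 and -1.06 in ILC3 and -0.46 in ILC2 and -0.70 in ILC3. Crem, a cyclic AMP responsive factor, had -1.05 in ILC2 and -1.52 in ILC3. The cold-inducible Rbm3, a list member already given above, had -0.73 in ILC2 and -1.30 in ILC3. Socs1, a brake on cytokine signalling, had -0.67 in ILC2 and -0.78 in ILC3, and Zc3h12a, which encodes the mRNA nuclease Regnase-1, had -0.54 in ILC2 and -0.97 in ILC3. Satb1, a chromatin organiser, had -0.56 in ILC2 and -0.80 in ILC3. The genes higher in both cell types by the same criterion were 4: Arrdc3, Hsph1, Hspd1 (0.49 in ILC2 and 0.56 in ILC3) and Cacybp (0.48 in ILC2 and 0.58 in ILC3). No gene of these passed adjustment over all genes in either cell type.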
